A study of Rattus norvegicus and Mus musculus with 61 samples.

Results

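The genes of antigen presentation were followed through every naive, sham and injured group of a mouse and rat brain injury series measured on oligonucleotide microarrays. The members were beta-2 microglobulin (B2m), the class I heavy chains H2-K1 and H2-D1, the class II chains H2-Aa, H2-Ab1 and H2-Eb1, the invariant chain Cd74 and the peptide transporter subunits Tap1 and Tap2 in mouse, and B2m, Cd74, Tap1 and every gene whose symbol begins with RT1- in rat. The rule that picks them reads gene symbols and no measured value, although the gene set was proposed with earlier results of these data known. Probe sets naming only a member numbered 14 for 9 mouse genes, of 12488 probe sets, and 38 for 20 rat genes, of 8799 probe sets. Another 3 mouse and 6 rat probe sets list a member together with other genes and were given to no single gene.

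In mouse, male C57BL/6 animals under isoflurane received a controlled cortical impact at 6 m/s with 1.5 mm deformation and were studied at 4, 8, 24 and 72 h (3 samples each), against sham surgery at the same times (2 samples each) and naive animals (2 samples). Each mouse sample pooled a 4 mm disk of parieto-occipital cortex from each of 3 animals. The mouse sham samples of each time share a number in their titles and differ by a letter, and whether they are separate pools is not stated, so their spread may be technical. In rat, male Sprague-Dawley animals under sodium pentobarbital received a fluid percussion pulse of 2.5 atm, and 1 sample came from a 7 mm disk of 1 animal. Injured rats were studied at 30 min (5 samples), 4, 8, 24 and 72 h and 21 d (3 samples each), sham rats at 30 min and 4 h (4 samples each) and at 8, 24 and 72 h and 21 d (2 samples each), and naive rats numbered 3. No animal carried an engineered allele, ages were not given, and the disks of injured cortex were centred on the impact and contained the contusion. All are bulk tissue samples, in which fewer cells of a type and less RNA per cell cannot be told apart.

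Class I molecules display peptides cut in the cytosol on nearly every nucleated cell: the Tap1 and Tap2 subunits carry peptides into the endoplasmic reticulum, where a heavy chain folds with B2m and is read by CD8 T cells. Class II molecules display peptides from engulfed material: an alpha and a beta chain assemble on Cd74, the invariant chain, which is cut away by cathepsins before the DM molecule exchanges the remaining fragment for a peptide that CD4 T cells read. In resting brain little protein of either class is displayed on cells, class II is found mainly in border macrophages and in microglia that have been activated, and both classes are induced by interferon gamma. The values below are of RNA and not of protein. C57BL/6 mice carry a defective H2-Ea gene, so H2-Eb1 has no alpha chain partner in them.

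Promoters of these genes are known for a shared block, the S-X-Y module, read by the RFX, CREB and NF-Y factors together with CIITA or NLRC5. The windows below run from 250 bases before to 50 bases after the RefSeq start of the gene, from rat assembly GRCr8, and are shown for a class I partner, a transporter subunit and 3 class II chains that were called in rat. Capitals mark matches, on either strand, to the Y box core (ATTGG), the X2 core (TGACG), the interferon response element core (GAAA, any 2 bases, GAAA), the interferon gamma activated site core (TTCNNNGAA) and the NF-kB motif, which may overlap one another. The B2m window lies at chr3:129549080-129549379 on the plus strand, and all the others lie on chromosome 20: Tap1 at chr20:4668494-4668793 (minus strand), RT1-Da at chr20:4515165-4515464 (plus), RT1-Db1 at chr20:4560113-4560412 (minus) and RT1-Bb at chr20:4604069-4604368 (minus).
B2m: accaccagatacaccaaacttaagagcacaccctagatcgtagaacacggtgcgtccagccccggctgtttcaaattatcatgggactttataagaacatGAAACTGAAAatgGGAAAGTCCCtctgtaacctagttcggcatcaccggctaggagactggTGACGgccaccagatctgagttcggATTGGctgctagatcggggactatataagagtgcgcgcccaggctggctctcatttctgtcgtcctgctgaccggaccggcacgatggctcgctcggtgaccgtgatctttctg
Tap1: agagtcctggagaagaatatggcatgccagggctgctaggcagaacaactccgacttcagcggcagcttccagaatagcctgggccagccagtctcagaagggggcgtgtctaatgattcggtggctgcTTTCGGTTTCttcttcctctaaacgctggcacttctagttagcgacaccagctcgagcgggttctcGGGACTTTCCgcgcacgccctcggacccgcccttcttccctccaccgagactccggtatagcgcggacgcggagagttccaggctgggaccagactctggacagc
RT1-Da: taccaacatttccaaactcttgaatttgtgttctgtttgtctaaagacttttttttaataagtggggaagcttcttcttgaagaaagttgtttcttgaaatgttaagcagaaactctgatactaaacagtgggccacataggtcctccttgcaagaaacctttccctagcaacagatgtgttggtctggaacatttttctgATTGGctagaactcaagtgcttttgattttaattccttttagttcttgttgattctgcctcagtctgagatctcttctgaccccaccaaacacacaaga
RT1-Db1: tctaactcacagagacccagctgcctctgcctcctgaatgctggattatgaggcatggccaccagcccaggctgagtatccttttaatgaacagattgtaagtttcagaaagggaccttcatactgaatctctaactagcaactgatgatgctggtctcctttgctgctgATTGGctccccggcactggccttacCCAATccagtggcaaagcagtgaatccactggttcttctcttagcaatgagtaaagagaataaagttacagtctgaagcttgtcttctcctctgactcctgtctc
RT1-Bb: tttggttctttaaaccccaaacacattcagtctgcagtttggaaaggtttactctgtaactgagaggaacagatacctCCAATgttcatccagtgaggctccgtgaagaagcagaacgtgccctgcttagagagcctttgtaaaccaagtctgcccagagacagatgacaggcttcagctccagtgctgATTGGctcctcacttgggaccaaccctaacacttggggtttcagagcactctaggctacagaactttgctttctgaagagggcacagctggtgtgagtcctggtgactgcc

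The B2m window held, in order, an interferon response element core at -150 to -141, an NF-kB match at -137 to -128, an X2 core at -89 to -85 and a Y box core at -64 to -60, counted from the gene's start. The Tap1 window held an interferon response element core at -121 to -112 and an NF-kB match at -55 to -46, and neither a Y box nor an X2 core. The class II windows held a Y box core at -49 to -45 in RT1-Da, at -80 to -76 and -55 to -51 in RT1-Db1, and at -172 to -168 and -61 to -57 in RT1-Bb. Windows were found for 18 of the 20 rat members, and RT1-A and RT1-DMb had none in the table. The Y box core was present in 16 of the 18, against 37.5% of the 33469 rat windows, and the Y box and X2 cores together in 6 of the 18, against 7.75%. The interferon response element core was in 4 (3.92% of all windows), the NF-kB motif in 7 (7.51%) and the interferon gamma activated site core in 1 (8.87%). A match is a description of these letters and not a binding site.

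Intensities were deposited on a linear scale, on which every array had a trimmed mean of 799.9 to 800, and the median probe set read 285.2 to 340.3 in mouse and 230.3 to 408.8 in rat. Values were floored at the 10th percentile (24.1 in mouse, 32.1 in rat), and a gene was tested if it exceeded the 40th percentile (193.5 and 202.5) in at least 3 arrays. 8 of 9 mouse members and 17 of 20 rat members passed. H2-Aa, RT1-A3, RT1-DOb and RT1-Ha did not, and H2-Ab1 passed through 4 injured arrays and no uninjured one, so its difference was partly fixed by the filter. Differences below are log2 injury minus sham with their standard error, a gene was called at an adjusted p under 0.05 (limma, Benjamini-Hochberg over all 6355 mouse or 4091 rat genes), and its p reflects no more than the spread among arrays. 4 rat arrays stood apart from the rest, sham 4 h replicates 3 and 4, injury 30 min replicate 5 and sham 30 min replicate 3: their median correlation with the other rat arrays was 0.593 to 0.822, against 0.856 to 0.942 for the remaining 35. The titles of all rat 24 h arrays, injured and sham, carry an extra letter whose meaning is not stated.

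In mouse cortex at 72 h after impact 6 of the 8 tested members rose and none fell, where 9.85% of all genes rose and 5.68% fell. The 6 were B2m, Cd74, H2-Ab1, Tap1, H2-K1 and H2-D1, with folds of 1.99 to 4.62, and leaving out H2-Ab1, which no uninjured array held above the filter, 5 of 7 rose. At 24 h 2 members rose (6.2% of all genes), at 8 h 2 rose (4.91%) and at 4 h none did (0.677%), with 2 at an unadjusted p under 0.05. The median difference of the 8 was 0.18, 0.68, 0.62 and 1.09 at 4, 8, 24 and 72 h, against 0, -0.03, -0.04 and -0.01 over all genes. Every injured array exceeded every sham array for 3, 5, 7 and 6 members at these times, where 18%, 17.8%, 17% and 20.5% of all genes were so placed.

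**Figure D1:**
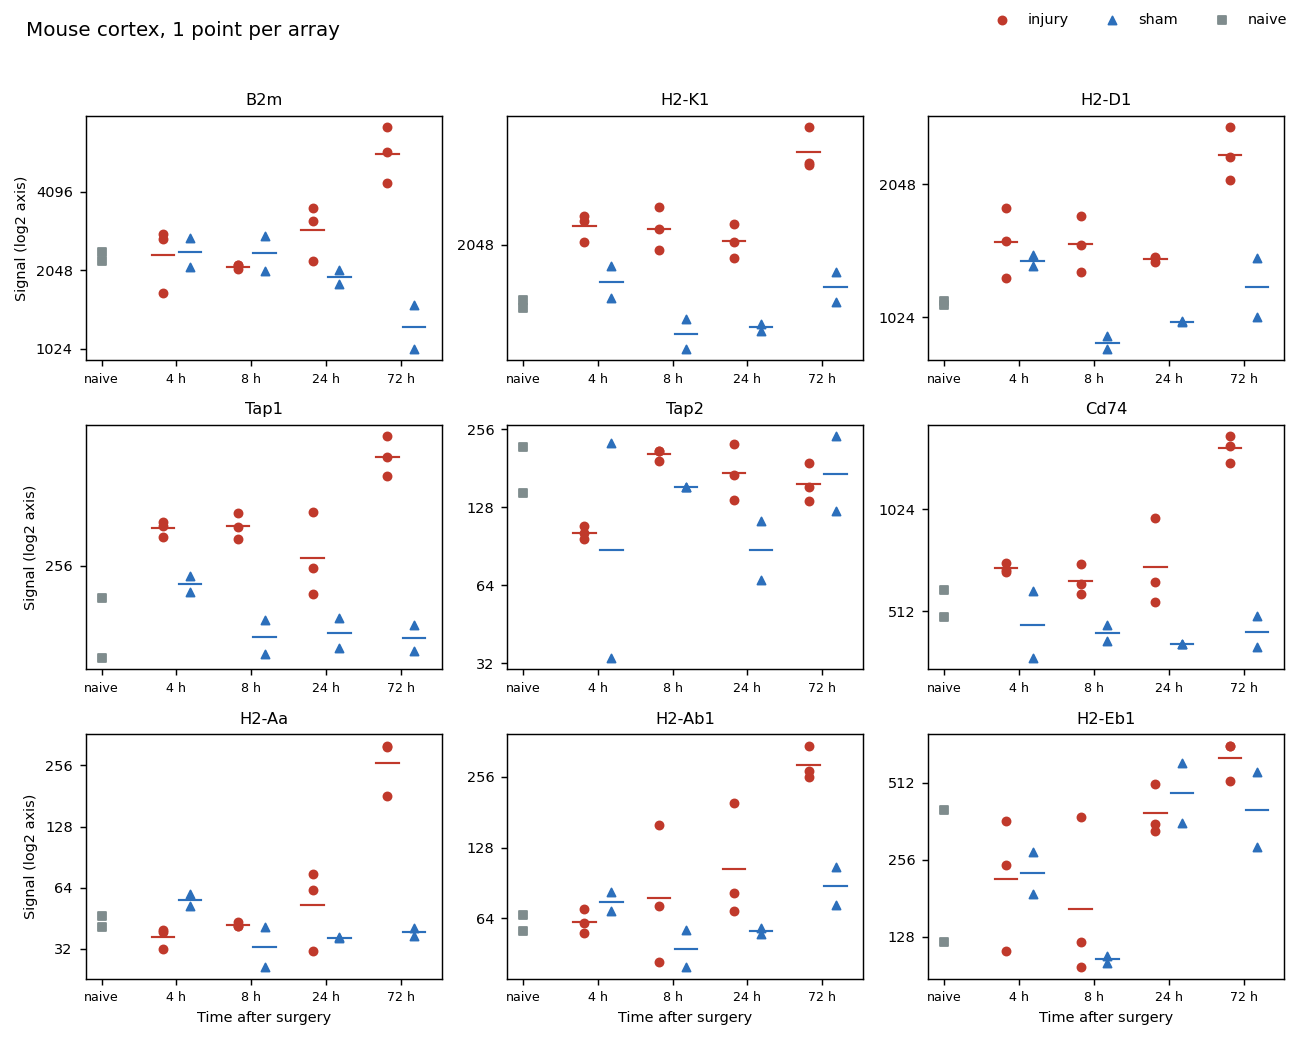
Deposited signal of the 9 mouse members (log2 axis) in each group, 1 point per array, with naive arrays at the left and injured arrays left of sham arrays at each time; lines mark the mean on the log2 scale. The 3 injured arrays at 72 h lie above all others for B2m, Cd74 and H2-Aa, whereas those of Tap2 lie among the sham and naive arrays.

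B2m, the light chain shared by all class I molecules, had the largest difference among the tested members at 72 h in the main fit. That rank depended on the fit: over the alternatives listed below B2m ranged from 1.52 to 2.49, Cd74 from 1.65 to 1.95 and H2-Ab1 from 1.46 to 2.17. The signal of B2m was 5814, 4448 and 7256 in injured cortex at 72 h, against 1508 and 1019.6 in sham cortex. At 24 h it was 3163, 2222 and 3542 in injured and 2051 and 1819 in sham cortex, and naive cortex read 2232 and 2409. The 72 h injured arrays all lay above every other mouse array, and the 72 h sham arrays were the lowest of the uninjured groups. B2m rose by 2.21 ± 0.25 (4.62-fold, 95% interval 1.69 to 2.72 on the log2 scale, adjusted p = 4.86e-06, limma). At 24 h the difference was 0.60 ± 0.25 and did not pass (adjusted p = 0.142, limma), and at 4 h the signals of 2813, 2708 and 1679 in injured cortex overlapped 2113 and 2735 in sham cortex. Ordered by group mean, B2m stood at 5839 ± 1404 in injured cortex at 72 h (SD, n = 3) and 2976 ± 679.5 at 24 h (SD, n = 3). The other 7 groups followed, between 2424 ± 440.3 in sham cortex at 4 h and 1264 ± 345.1 in sham cortex at 72 h (SD, n = 2 each). Among these, neighbouring means differed by less than the larger of their SDs down to naive cortex (2320.0 ± 125.7, n = 2), and by more at each step below it, to injured cortex at 8 h (2117 ± 44.5, n = 3), sham cortex at 24 h (1935 ± 164.3, n = 2) and sham cortex at 72 h.

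The heavy chains H2-K1 and H2-D1, which form the peptide groove of classical class I molecules, were first called at 8 h. H2-K1 read 2219, 2492 and 1994 in injured cortex at 8 h, against 1385 and 1186 in sham cortex. It rose by 0.80 ± 0.14 at 8 h (adjusted p = 0.00128, limma), by 0.65 ± 0.14 at 24 h (0.00517) and by 1.02 ± 0.14 at 72 h (5.32e-05). Injured and sham arrays did not overlap at any of the 4 times, and the 4 h difference of 0.42 was not called. At 72 h the H2-K1 signals were 3135, 3109 and 3782 in injured and 1520.5 and 1777 in sham cortex. H2-D1 read 2091, 2361 and 2754 in injured cortex at 72 h, against 1396 and 1028 in sham cortex, a rise of 0.99 ± 0.17 (adjusted p = 0.000387, limma). It had risen by 0.74 ± 0.17 at 8 h (adjusted p = 0.00872, limma) and stood 0.47 higher at 24 h without passing (0.0844). Of the 3 probe sets that list a member with other genes, 1 lists H2-K1 and H2-D1 with other class I genes and read 1492, 997 and 1708 in injured and 675 and 510.1 in sham cortex at 72 h. The other 2 were above the filter in no array and read 87.1 to 118.1 with H2-K1 and 15.1 to 42.8 with H2-D1 in injured cortex at 72 h, against 115.6 to 145.8 and 16.6 to 64.8 in sham cortex. Both genes share sequence with other class I genes, and the probe sets used carry the maker's suffix for a gene family, so signal from other heavy chains cannot be told apart. Of the other probe sets, 1 for H2-K1, above the filter in 12 injured and 2 uninjured arrays and so partly fixed by the filter, gave 1.76 at 72 h (adjusted p = 0.0216, limma) and 1 without the family suffix gave -0.14 (0.858), and for H2-D1 1 rose (1.35, 9.76e-06) and 1 did not pass (0.76, 0.398).

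Of the peptide transporter subunits, Tap1 was called at 72 h and Tap2 was not, and the difference between them was not tested. Tap1 read 415, 382 and 455 in injured cortex at 72 h, against 197 and 175 in sham cortex. The arrays were fully apart at 72 h, as at 4, 8 and 24 h, and Tap1 rose by 1.17 ± 0.22 (adjusted p = 0.00105, limma). At 8 h its difference of 0.71 ± 0.22 missed the threshold (0.052). Tap2 read 153, 135 and 189 in injured cortex at 72 h, against 124 and 240.2 in sham cortex, a difference of -0.13 ± 0.54 (0.912). The sham arrays of Tap2 spread over a wider range than the injured ones, and no time gave a call. A further Tap1 probe set, which the maker's suffix marks as built under relaxed rules, gave 0.38 at 72 h (0.622).

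Class II genes and Cd74 had their highest group means in injured cortex at 72 h. Cd74, the chaperone of newly made class II chains, read 1402, 1577 and 1682 in injured cortex at 72 h, against 401 and 494 in sham cortex. At 24 h it read 545, 964 and 624 in injured and 409 and 409 in sham cortex. The 72 h injured arrays were all above every other mouse array, and at every time the injured arrays exceeded the sham arrays. Cd74 rose by 1.80 ± 0.22 at 72 h (3.48-fold, adjusted p = 1.32e-05, limma) and by 0.75 ± 0.22 at 24 h (0.0325), and its differences at 4 and 8 h were not called. The 24 h call was lost without injury replicate 2, which read 964 (0.51, adjusted p = 0.117, limma), and with the replicate block (0.69, 0.0843). H2-Ab1, the beta chain of the I-A molecule, read 270.5, 257 and 348 in injured cortex at 72 h, against 73.3 and 106 in sham cortex, and was called at 1.72 ± 0.55 (0.0411). That call was lost on leaving out any 1 of the 5 arrays compared, with adjusted p-values of 0.0638 to 0.164 (limma), and with quantile normalization (0.0805), averaged sham samples (0.21), the replicate block (0.0771) or the title letter as a block (0.0956). H2-Aa, its alpha chain, read 314, 181 and 321 in injured and 40.6 and 36.8 in sham cortex at 72 h, and between 25.9 and 75.1 in every other mouse array. In the fit without the filter H2-Aa differed by 2.77 ± 0.33 at 72 h (6.81-fold, adjusted p = 4.49e-05, limma), and its values outside that group sit near the floor, where a fold is compressed. H2-Eb1 read 714, 715 and 519 in injured cortex at 72 h, against 288 and 562 in sham cortex, so that the groups overlapped and the difference of 0.68 ± 0.55 was not called (0.488).

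The change between times was tested directly. The injury difference at 72 h exceeded that at 4 h for 3 of the 8 members, B2m by 2.25 ± 0.35 (adjusted p = 0.000674, limma), Cd74 by 1.25 ± 0.31 (0.0213) and H2-D1 by 0.86 ± 0.24 (0.0417), where 3.6% of all genes rose in this contrast. The median over the 8 was 0.83, against 0 over all genes. Within injured cortex 4 members were higher at 72 h than at 24 h, Cd74 by 1.17 ± 0.20 (0.00205), B2m by 0.97 ± 0.22 (0.0159), H2-D1 by 0.78 ± 0.15 (0.0056) and H2-K1 by 0.68 ± 0.13 (0.00497), where 2.68% of all genes rose. Without the filter H2-Aa was higher by 3.37 ± 0.46 in the first contrast (0.000603) and by 2.32 ± 0.29 in the second (0.000359). Without injury replicate 3 at 72 h, and without sham sample 1b at 4 h, 1 member was called in the first contrast. Sham against naive cortex gave no call among the 8 members by limma (0.11% of all genes called in either direction) and none at an unadjusted p under 0.05, with a median difference of -0.01.

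The 4 h sham samples carried pituitary hormone transcripts, which mark a tissue outside the labelled cortex. Prl, Pomc, Cga and Lhb were lower in injured than in sham cortex at 4 h by log2 differences of -4.59, -4.16, -4.02 and -1.61, whereas Gh, also on the list, was higher by 1.03 (adjusted p = 0.022, limma). The summed signal of 6 pituitary markers was 2131 to 2576 in injured and 18500 to 20730 in sham cortex at 4 h, and at most 2650.0 in every other mouse group, so every difference at 4 h, and the 72 h against 4 h contrast, rests on sham arrays with this signal. Its part in the members' values was not tested. With the sham samples of each time averaged to 1, 1 member was called at 8 h, none at 24 h, 5 at 72 h and 1 in the 72 h against 4 h contrast. Calls at 24 h rested on single arrays: both were lost without sham sample 1d and 1 was lost without sham sample 1c, and at 8 h 1 member was called without sham sample 1b.

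**Figure D2:**
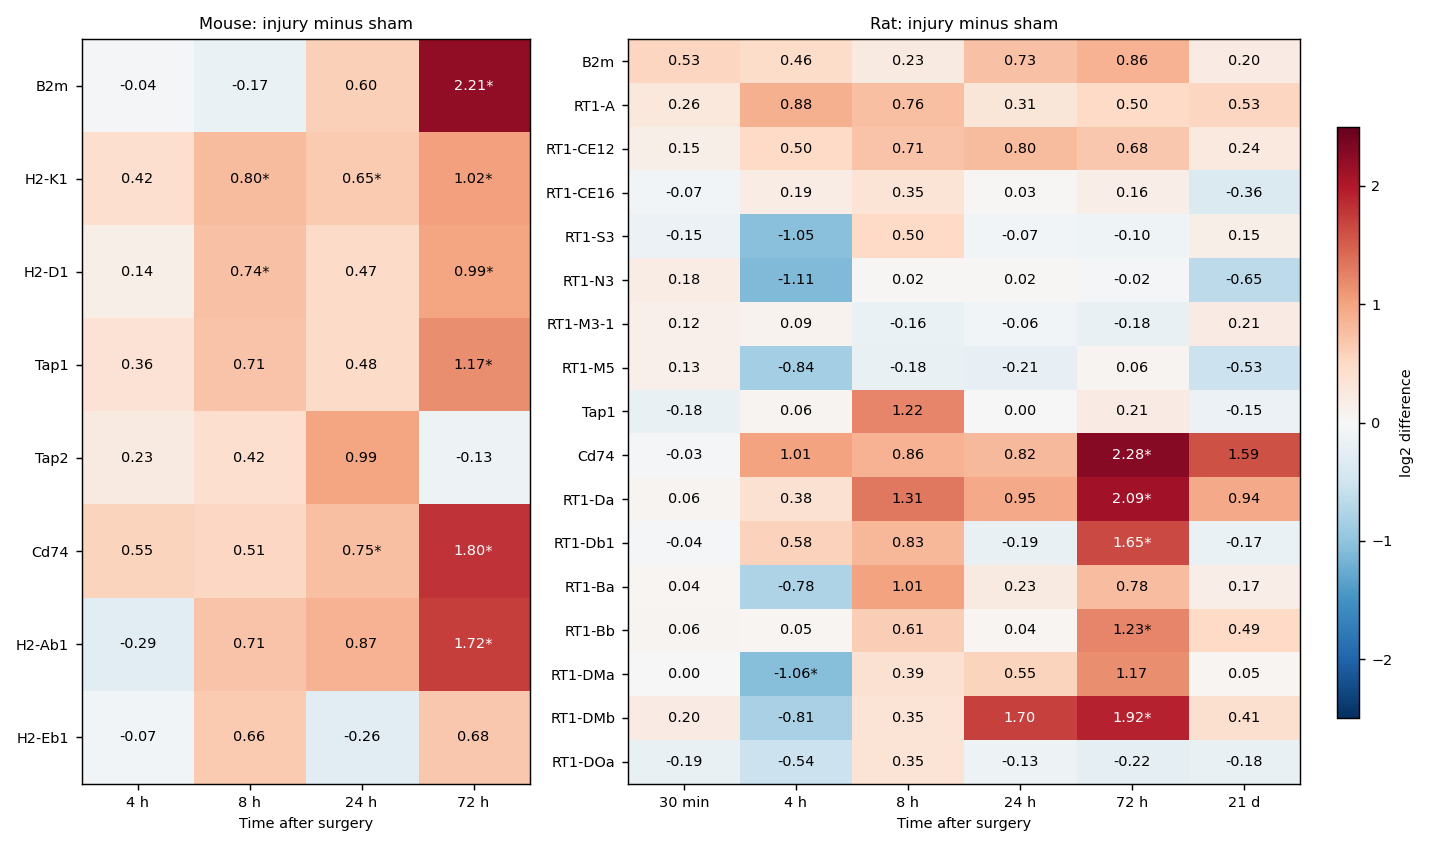
Log2 difference of injured minus sham cortex for each member (a row for each) at each time, mouse and rat, on a colour scale centred on 0, with an asterisk at an adjusted p below 0.05 (limma). Asterisks gather in the 72 h columns: 6 in mouse and 5 in rat.

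Microglia and macrophage markers moved with the members in mouse. The sum of 14 markers of these cells (among them Aif1, Cd68, Tyrobp and Csf1r) was 9254 to 11660 in injured and 7386 to 7588 in sham cortex at 4 h, 12300 to 13950 against 6254 to 6374 at 24 h, and 20170 to 27920 against 6087 to 7314 at 72 h, and 10 of the 11 tested rose at 72 h. Endothelial markers summed to 6721 to 8067 in injured and 3269 to 4210 in sham cortex at 72 h, with 4 of 8 called. Astrocyte markers summed to 28260 to 31310 in injured and 20980 to 22440 in sham cortex at 72 h, where Gfap rose by 2.76 and Aqp4 by 1.94, and the neutrophil gene S100a8 rose by 1.29. T and NK cell markers summed to 808.5 to 1054 in injured and 686 to 830.6 in sham cortex at 72 h, and 8 of the 10 on the array, including Cd3d, Cd3e, Cd3g, Cd8a and Cd8b1, were above the filter in no mouse array. B cell markers summed to 2258 to 2734 against 2042 to 2191, and dendritic cell markers to 1818 to 2204 against 2051 to 2548, in injured and sham cortex at 72 h. The part of these cell types in the members' changes was not tested.

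Other genes of the pathway, from lists set by function, were also measured in mouse. Of 11 tested genes of class II loading and lysosomal proteolysis, 4 rose at 24 h and 5 at 72 h, and none fell. Ctss, the cathepsin that trims the invariant chain in professional presenting cells, rose by 1.76 ± 0.13 at 72 h (adjusted p = 1.15e-08, limma), Ctsl, a related cathepsin, by 1.77 ± 0.17 (3.69e-07) and Lgmn, the legumain protease, by 1.67 ± 0.19 (7.24e-06). The median of this list was -0.16, 0.28, 0.51 and 0.74 at 4, 8, 24 and 72 h, against 0, -0.03, -0.04 and -0.01 over all genes. Of 3 tested immunoproteasome genes 1 was called, Psmb8, a catalytic subunit that replaces a constitutive one: it rose by 1.36 ± 0.34 at 8 h (0.0157), by 1.77 at 24 h (0.00169) and by 1.88 at 72 h (0.000654). None of 3 tested class I loading genes was called at any time. Of 7 class Ib and class I-like genes, H2-M3 rose at 24 h by 1.30, and at 72 h 3 rose (Cd1d1 by 2.86, Hfe by 1.50 and H2-Q4 by 1.50) and H2-Q1 fell by 1.38. Of 9 transcription factors 2 rose at 8 h, 3 at 24 h and 2 at 72 h, and none fell. Irf1, an interferon-induced activator of class I and Tap1, rose at 8 h by 1.07 and at 24 h by 1.09, Rela, an NF-kB subunit, at 8 h by 0.86, Irf8, a myeloid regulator, at 24 h by 0.84 and at 72 h by 1.57 ± 0.23 (8.82e-05), and Irf9 at 24 h by 0.98 and at 72 h by 0.84. Of the 2 tested co-stimulation genes, Cd83 rose at 4 h by 1.54 ± 0.30 (0.0125).

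In rat cortex 5 of the 17 tested members rose at 72 h after percussion and none fell, where 2.1% of all genes rose and 0.66% fell. All 5 belong to class II presentation: Cd74, the DR-type chains RT1-Da and RT1-Db1, the beta chain RT1-Bb, and RT1-DMb, a chain of the peptide exchange molecule. At 30 min, 8 h, 24 h and 21 d no member was called (0.0244%, 0.709%, 0.269% and 0% of all genes called in either direction), and at 4 h 1 fell (2.05% of all genes fell). At an unadjusted p under 0.05 the counts were 1 at 30 min, 5 at 8 h, 4 at 24 h and 2 at 21 d. The median difference of the 17 was 0.06, 0.06, 0.5, 0.04, 0.68 and 0.17 at 30 min, 4 h, 8 h, 24 h, 72 h and 21 d, against -0.03, -0.12, 0.06, 0, 0.07 and -0.03 over all genes. Every injured array exceeded every sham array for 11 of the 17 at 8 h and 10 of the 17 at 72 h, where 19.5% and 19% of all genes were so placed. The 72 h calls depended on single arrays: none was left without injury replicate 3, sham replicate 1 or sham replicate 2, and 3 were left without injury replicate 2. Without the 4 arrays that stood apart, 8 members were called at 72 h and 9.19% of all genes were called in either direction, against 2.76% with them.

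**Figure D3:**
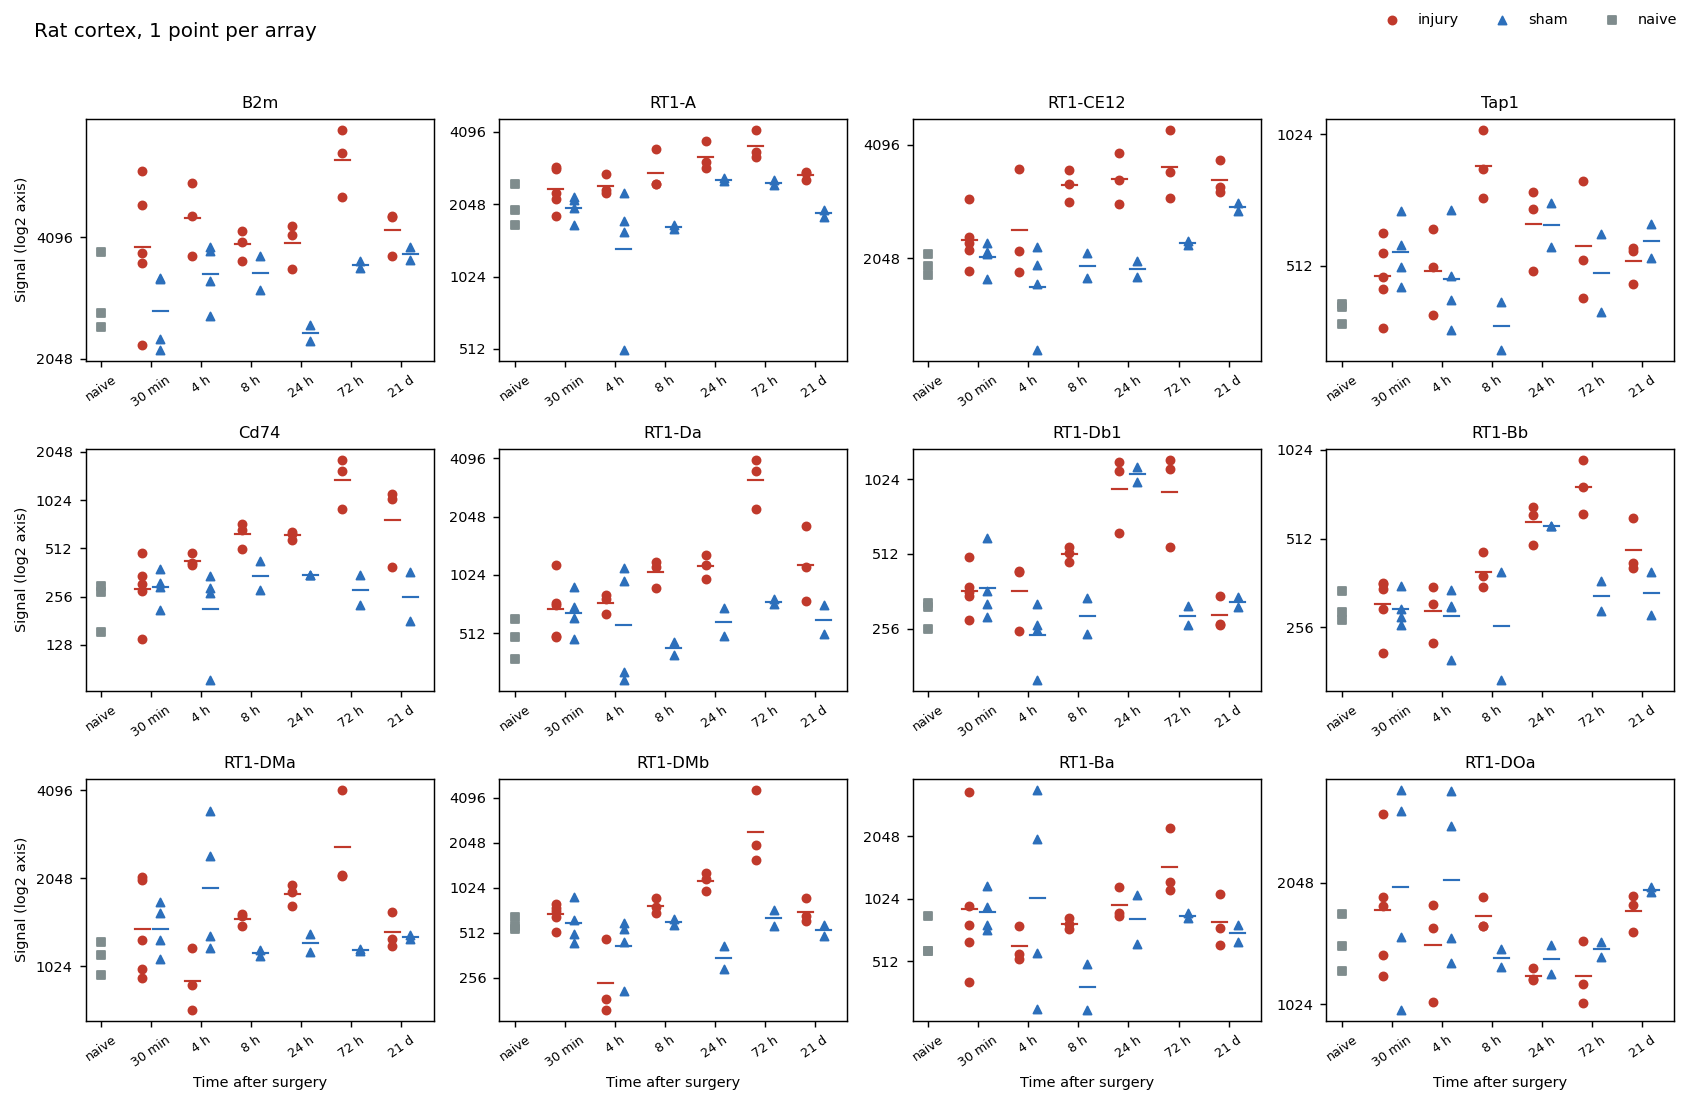
Deposited signal of 12 rat members (log2 axis) in each group, 1 point per array, with naive arrays at the left and injured arrays left of sham arrays at each time; lines mark the mean on the log2 scale. The 72 h injured arrays of RT1-Da lie above all other rat arrays, and those of Cd74 overlap the injured arrays at 21 d.

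Cd74 read 1558, 895 and 1829 in injured rats at 72 h, against 228 and 349 in sham rats. At 24 h it read 628, 575 and 647 in injured and 348 and 349 in sham rats, and naive rats read 298, 154 and 275. Injured arrays exceeded sham arrays at 4, 8, 24 and 72 h and at 21 d. Cd74 rose by 2.28 ± 0.52 at 72 h (4.85-fold, adjusted p = 0.0116, limma), and the differences at the other times were not called. At 21 d it still read 389, 1042 and 1120.5 in injured rats, against 180.4 and 362 in sham rats, a difference of 1.59 ± 0.52 with an unadjusted p = 0.00433 and an adjusted p = 1 (limma). The highest 2 of these 21 d arrays lay above every uninjured rat array and the lowest did not. A second Cd74 probe set rose at 72 h by 3.34 (adjusted p = 0.0322, limma) and another stood 1.57 higher without passing (0.256).

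RT1-Da, the alpha chain of the DR-type molecule, read 3509, 2241 and 4037 in injured rats at 72 h, against 726 and 764 in sham rats. It rose by 2.09 ± 0.45 (4.25-fold, adjusted p = 0.0074, limma), and its other probe set rose by 1.43 (0.0461). At 8 h it read 875, 1121 and 1199.6 in injured and 395 and 460.0 in sham rats, a difference of 1.31 ± 0.45 that did not pass (0.275). By 21 d the signals of 746, 1129.8 and 1827 in injured rats still lay above 506 and 713 in sham rats, and the injured rats had fallen by 1.46 ± 0.40 relative to 72 h (0.0301). That fall was not called without 72 h replicate 1 or 3, without 21 d replicate 1 or 2, or with only the compared groups fitted (adjusted p = 0.0578 to 0.193, limma). RT1-Db1, the matching beta chain, read 547, 1225 and 1119 in injured rats at 72 h, against 265 and 314 in sham rats, and rose by 1.65 ± 0.37 (0.011). RT1-Bb, the beta chain of the molecule that corresponds to mouse I-A, read 766, 619 and 948 in injured and 291 and 367 in sham rats at 72 h and rose by 1.23 ± 0.34 (0.0446). A second RT1-Bb probe set overlapped at 72 h, with 226, 819 and 1533 in injured and 215 and 232 in sham rats. RT1-Ba, the partner of RT1-Bb, stood 0.78 higher without passing (0.647). Other RT1-Ba probe sets overlapped at 72 h: 1 read 75.6, 503 and 332 in injured and 152 and 349 in sham rats, and 1 read 116, 129 and 404.5 against 83.2 and 198.5.

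RT1-DMa and RT1-DMb form DM, which releases the invariant chain fragment, and RT1-DOa belongs to DO, which restrains DM. RT1-DMb read 1968, 1578 and 4632 in injured rats at 72 h, against 732 and 565 in sham rats, and rose by 1.92 ± 0.42 (adjusted p = 0.00956, limma). Its other probe sets gave 3.77 (0.000187) and 3.67 (0.00236), but they exceeded the filter in 6 and 5 injured arrays and in 2 and 0 uninjured ones, so their differences were partly fixed by the filter. RT1-DMa read 2107, 2081 and 4108 in injured and 1151 and 1172 in sham rats at 72 h, apart but not called at 1.17 ± 0.37 (0.0795). Averaged over its probe sets, RT1-DMa was called at 72 h at 1.29 (adjusted p = 0.0278, limma). At 4 h RT1-DMa was the only member that fell, by 1.06 ± 0.31 (0.0436), with 728, 881 and 1179 in injured rats, against 1303, 1179, 2444 and 3485 in sham rats. The 2 highest sham values belong to arrays that stood apart, and without the 4 such arrays the difference was -0.44 (0.656) and RT1-Da was called instead at 1.25 (0.0361). A second RT1-DMa probe set overlapped at 4 h, with 384.5, 547 and 241 in injured and 483, 393, 340 and 235 in sham rats. The mean of the RT1-DMa probe sets gave -0.49 at 4 h (adjusted p = 0.222, limma). The count at 4 h was also 0 without any 1 of the injured arrays or without sham replicate 4, 5 without sham replicate 1 and 7 without sham replicate 2. Without sham replicate 2 the gained calls went both ways: Cd74 (1.23) and RT1-A (0.96) rose, and RT1-Ba (-1.37), RT1-M5 (-1.16), RT1-N3 (-1.13) and RT1-S3 (-1.43) fell. Without sham replicate 1 RT1-A rose and RT1-M5, RT1-N3 and RT1-S3 fell. Leaving out either replicate keeps sham replicates 3 and 4, the arrays that stood apart, as most of the group. In sham replicates 1 to 4, RT1-S3 read 440, 510.5, 2234 and 3037 and RT1-M5 read 560, 512, 1747 and 1993. The part of replicates 3 and 4 in the gained calls was not tested. The share of all genes called in the fits that leave out 1 array is not given, so the counts cannot be set against it. RT1-DOa differed by -0.22 at 72 h (0.869).

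No class I member was called in rat at any time by the probe set used for its gene. B2m read 6618, 5156 and 7554 in injured rats at 72 h, against 3578 and 3431 in sham rats. All injured arrays exceeded the sham arrays, and the difference of 0.86 ± 0.30 did not pass (adjusted p = 0.125, limma). Without the 4 arrays that stood apart it passed (0.0272), as did RT1-CE12, a class I heavy chain (0.0439), which read 2959, 3471 and 4497 in injured and 2212 and 2277 in sham rats at 72 h. RT1-A, the classical heavy chain, read 3459, 2478 and 2475 in injured rats at 8 h, against 1671 and 1608 in sham rats, and differed by 0.88 ± 0.29 at 4 h (0.0608) and by 0.50 at 72 h (0.551). At 4 h it read 2284, 2740 and 2336 in injured and 1736, 1569, 2270 and 508.2 in sham rats. The last 2 of these sham values, the highest and the lowest, belong to arrays that stood apart. Both heavy chains were measured by family probe sets. The class Ib genes RT1-M3-1, RT1-M5, RT1-N3 and RT1-S3 and the class I gene RT1-CE16 differed by -0.18 to 0.16 at 72 h, and none was called at any time.

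Tap1 came nearest to a call at 8 h. It read 1049, 854 and 732 in injured rats at 8 h, against 329 and 424 in sham rats, fully apart, and the difference of 1.22 ± 0.31 missed the threshold (adjusted p = 0.0573, limma). It passed without the 4 arrays that stood apart (0.013), where 3 members were called at 8 h and 1.78% of all genes were, against 0.709% with them. Its probe sets disagreed at 72 h: the one used here gave 0.21 (0.837), and the other, which read 165, 208 and 364 in injured and 49.7 and 23.1 in sham rats, gave 2.54 ± 0.60 (0.0135). That probe set exceeded the filter in 10 injured arrays and 1 uninjured array, and its 72 h sham values lie near the floor of 32.1. The members that did not pass the filter gave no call at 72 h without it, with differences of -1.85 for RT1-A3 (0.184), 0.12 for RT1-DOb (0.866) and -1.11 for RT1-Ha (0.553).

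At 24 h in rat, some class II genes were as high in sham as in injured cortex. RT1-Db1 read 623, 1099 and 1196 in injured rats at 24 h, against 1000.2 and 1146 in sham rats. The other sham groups read 159.5 to 591.3 for this gene, so the 24 h sham arrays stood above all of them. RT1-Bb read 485, 616 and 655 in injured and 565 and 564 in sham rats at 24 h, and the highest of the remaining sham arrays read 394.6. A second RT1-Bb probe set was apart instead, with 797, 502 and 369 in injured and 327 and 339 in sham rats at 24 h. By another Cd74 probe set, signals were 690.5, 711 and 928 in injured and 732 and 233 in sham rats. A raised 24 h sham signal was not seen with the probe sets used for Cd74 and RT1-DMb. That of Cd74 was apart at 24 h, and that of RT1-DMb read 1181, 1286 and 968 in injured, against 296 and 416 in sham rats. For RT1-DMb the difference was 1.70 ± 0.42 (adjusted p = 0.0937, limma, and 0.015 without the 4 arrays that stood apart). A second RT1-DMb probe set showed it, with 706, 742.5 and 589 in injured and 377 and 628 in sham rats. A second Tap1 probe set read 237, 223 and 422 against 229 and 200.3, and 1 of RT1-S3 read 446, 524 and 384 against 407 and 441. The other uninjured arrays read at most 158, 106.1 and 301.9 by these probe sets. Microglia and macrophage markers summed to 5813 to 7643 in injured and 4552 to 4807 in sham rats at 24 h, against 1915 to 2814 in sham rats at 8 h, 72 h and 21 d, 2183 to 4609 at 30 min and 2404 to 5920 at 4 h, the last 2 groups holding arrays that stood apart, and T and NK cell markers to 2031 to 2596 in injured and 2398 to 2492 in sham rats at 24 h. The 24 h arrays also differed array-wide, with a median probe set of 399.6 to 408.8 in injured and 397.6 and 405.9 in sham rats. In 72 h sham rats it read 256.1 and 277.7. In 24 h sham rats Cd79b, a B cell marker, read 403.7 to 501.1, against 50.92 to 108.6 at 72 h. Pituitary markers summed to 2451 to 2467, against 1207 to 1350. Neuron, astrocyte and oligodendrocyte sums were lower than at 72 h, and neutrophil and endothelial sums overlapped. The part of these cells, of the array-wide difference and of whatever the extra letter in the 24 h titles stands for was not tested.

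**Figure D4:**
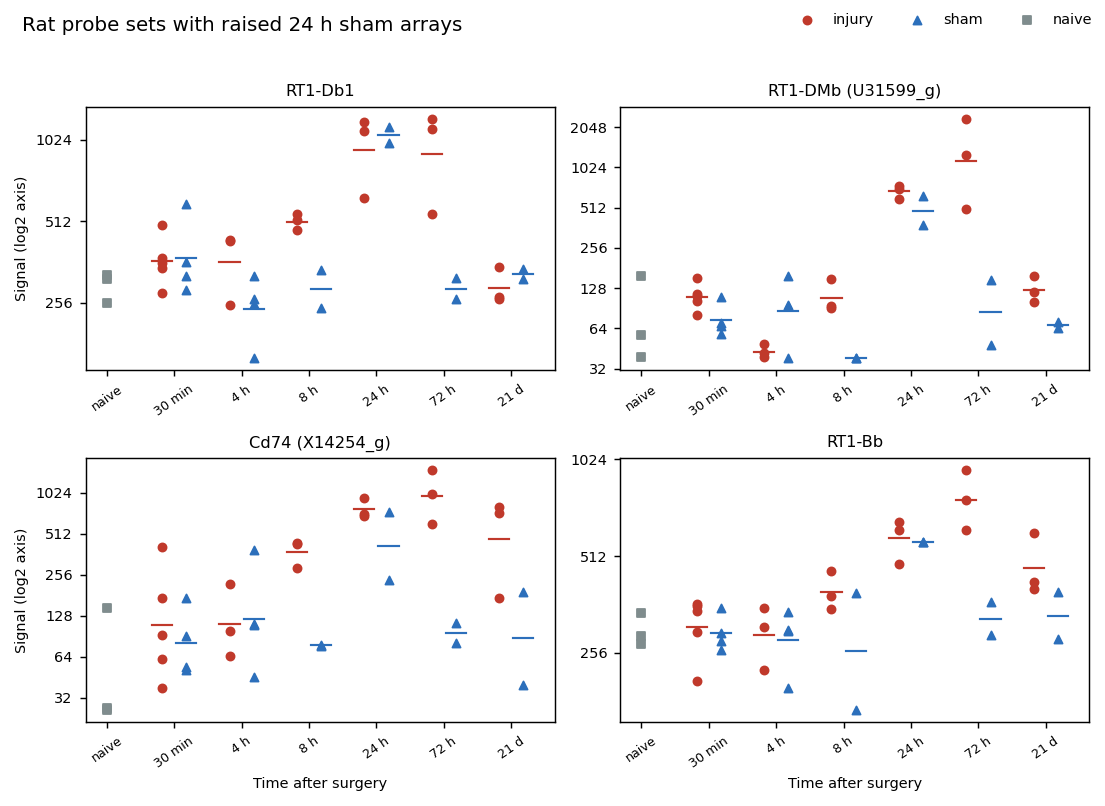
Deposited signal (log2 axis) of RT1-Db1, a second RT1-DMb probe set, a second Cd74 probe set and RT1-Bb in each rat group, 1 point per array, injured left of sham. For RT1-Db1 the 2 sham arrays at 24 h (1000.2 and 1146) lie within the injured range at that time and above every other sham array.

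The difference between times was also tested in rat. The injury difference at 72 h exceeded that at 4 h for RT1-DMb by 2.73 ± 0.55 (adjusted p = 0.00772, limma) and for RT1-DMa by 2.24 ± 0.48 (0.0107), 2 of 17 where 2.81% of all genes rose, and 1 was called without sham 72 h replicate 1 and none without sham 72 h replicate 2. Among injured rats 3 members fell at 21 d relative to 72 h, RT1-DMb by 1.77 ± 0.38 (0.00462), RT1-Db1 by 1.65 ± 0.33 (0.00318) and RT1-Da by 1.46 ± 0.40 (0.0301), where 2.44% of all genes fell, and 1 fell without injury 72 h replicate 3. The median change of the 17 members was -0.42, against -0.06 over all genes. Against naive rats, injured rats at 21 d had no member called (0% of all genes in either direction, 5 members at an unadjusted p under 0.05), with Cd74 1.72 ± 0.46 higher (adjusted p = 1). Sham against naive rats gave no call among the members (0.0244% of all genes) and 1 at an unadjusted p under 0.05.

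In rat at 72 h, markers of microglia and macrophages were higher and those of neurons lower in injured than in sham cortex. Those of T and NK cells and of endothelium overlapped. Microglia and macrophage markers, 8 of which are on the rat array, summed to 7196 to 16250 in injured and 2286 to 2512 in sham rats at 72 h, and to 2224 to 2792 in injured and 2538 to 2814 in sham rats at 21 d. Of the 6 tested, 3 rose at 72 h, Aif1 by 2.15, Lyz2 by 2.92 and Cd53 by 2.85. Csf1r and Itgam were above the filter in no rat array. Neuron markers summed to 5128 to 14270 in injured and 24510 to 26100 in sham rats at 72 h, and of 6 tested 1 was called, Nefm, which fell. T and NK cell markers summed to 1683 to 2530 in injured and 1774 to 1863 in sham rats at 72 h. Endothelial markers summed to 932 to 1192 in injured and 949.2 to 1030 in sham rats at 72 h. The 1 B cell marker on the rat array, Cd79b, read 277 to 567 in injured and 50.9 to 109 in sham rats at 72 h, a difference of 2.25 ± 0.89 that was not called (adjusted p = 0.202, limma), and its injury difference at 72 h exceeded that at 4 h by 4.52 ± 1.16 (0.0272). At 8 h the neutrophil genes S100a8 and S100a9 summed to 2406 to 6308 in injured and 130.9 to 198 in sham rats. The part of these cell types in the members' changes was not tested.

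Few other pathway genes were called in rat. Irf1 rose at 4 h by 1.44 ± 0.29 (adjusted p = 0.00444, limma) and Nfkb1, a subunit of the NF-kB factor, by 2.96 ± 0.47 (0.000547), of 10 tested transcription factors. Of 4 tested genes of class II loading and lysosomal proteolysis, Ctsb rose at 4 h by 1.39 and Ctsl rose at 72 h by 1.27 ± 0.36 (0.0477) and fell by 1.51 between 72 h and 21 d in injured rats. Fcgrt, the class I-like Fc receptor, fell at 4 h by 1.33, of 4 class Ib and class I-like genes. The 4 h calls of Irf1, Nfkb1, Ctsb and Fcgrt rest on a sham group in which 2 of 4 arrays stood apart. Over all genes 204 were called at 4 h, 44 without the 4 arrays that stood apart and 1 with only the compared groups. None of 4 immunoproteasome genes and none of 3 class I loading genes was called. Irf8 fell by 1.76 between 72 h and 21 d in injured rats.

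The 3 members measured under the same name in both species can be set side by side, with the caveat that the injury model, the disk, the pooling and the arrays all differ. At 72 h the difference was 2.21 ± 0.25 in mouse and 0.86 ± 0.30 in rat for B2m, 1.80 ± 0.22 and 2.28 ± 0.52 for Cd74, and 1.17 ± 0.22 and 0.21 ± 0.31 for Tap1. The order for Tap1 turned with the probe sets: averaged over a gene's probe sets it differed by 0.77 in mouse (adjusted p = 0.0541, limma) and by 1.37 in rat (0.0403). The rat average includes a probe set above the filter in 10 injured arrays and 1 uninjured array, whose 72 h sham values lie near the floor. Its difference was thus partly fixed by the filter. At 8 h Tap1 stood at 0.71 ± 0.22 in mouse and 1.22 ± 0.31 in rat, neither called. No test between species was made.

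**Figure D5:**
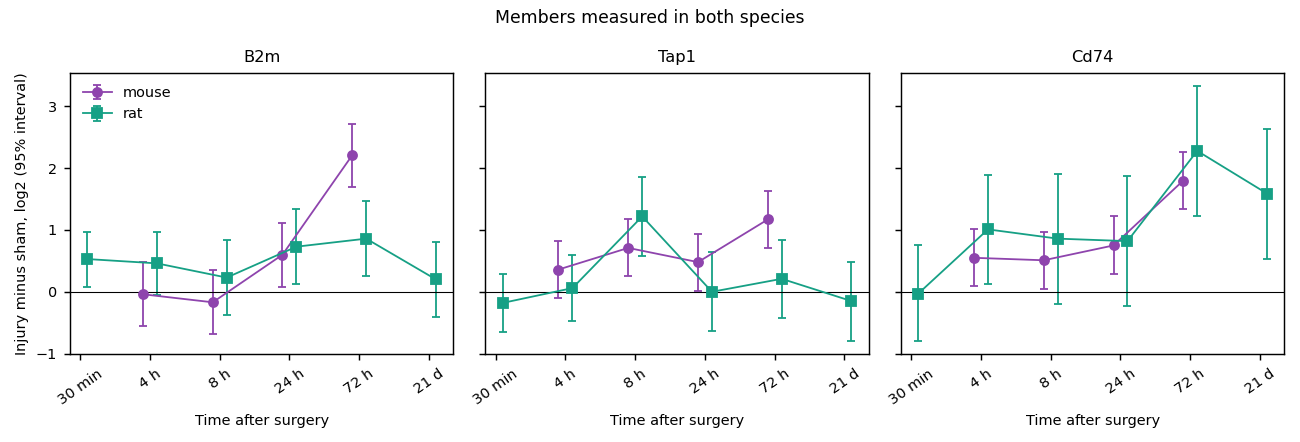
Log2 difference of injured minus sham cortex, with 95% intervals, for B2m, Tap1 and Cd74 at each time in mouse (4 to 72 h) and rat (30 min to 21 d). At 72 h the intervals lie above 0 for all 3 genes in mouse, and in rat for B2m and Cd74 but not for Tap1 by the probe set drawn. The other rat Tap1 probe set gave 2.54 ± 0.60, a difference partly fixed by the filter.

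By correlation of log2 signal over all 22 mouse arrays, the 5 genes most like B2m were Ctsl (r = 0.854), Ptgr1 (0.844), Cd68 (0.842), Ctss (0.842) and Cdc42 (0.842), and its nearest member, Cd74, ranked 119 of 6354. The 5 most like mouse Cd74 were Cd68 (0.918), Ctss (0.915), Lyz2 (0.908), Tyrobp (0.907) and C1qb (0.902), and H2-K1 ranked 7 (0.901), H2-D1 30, H2-Ab1 40 and Tap1 71. Over all 39 rat arrays the 5 most like B2m were Mdfic (0.8), Pcna (0.794), Cnn3 (0.787), Lims1 (0.749) and Fn1 (0.724), and RT1-Da ranked 7 of 4090 (0.707). The 5 most like rat Cd74 were Lgals3 (0.759), Ctsl (0.748), Pdia3 (0.746), Cyba (0.743) and Tspo (0.732), and RT1-CE12 ranked 3 (0.747) and RT1-Da 9. These correlations describe arrays that share groups and hybridisation, and groups of unequal size weigh on them.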

How the data were processed

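Affymetrix probe set intensities, deposited by the authors on a linear scale, were used for 22 mouse and 39 rat arrays. By the values, each array had been scaled to a common mean with 2% trimmed at each end. The software that made the intensities is not given in the sources used here. Groups came from the sample titles and descriptions. The GEO platform annotation gave 1 gene symbol to 10833 mouse and 7006 rat probe sets, several to 396 and 308, and none to 1193 and 1426, and 66 and 59 control probe sets were left out. Of the 20 rat members, 19 matched a current RefSeq gene by gene ID.

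Intensities were floored at the pooled 10th percentile and taken to log2. Genes above the pooled 40th percentile in at least 3 arrays were kept, each by its probe set with the highest mean. A model with 1 mean per group was fitted over all arrays of a species with limma 3.58.1 in R 4.3.3 (eBayes with an intensity trend, 13 residual degrees of freedom in mouse and 26 in rat), and p-values were adjusted by Benjamini-Hochberg over all genes. The scripts were tested on simulated data. The number of arrays limits the precision. Figures and promoter searches used Python 3.11.15 with pandas 2.3.3 and matplotlib 3.10.9.

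All members were named. Other pathway and marker genes came from lists set by function, at most 3 called genes being named per list and comparison. The members and lists were chosen with earlier results of these data known. Alternatives were quantile normalization, another floor, no filter, averaging a gene's probe sets, testing every probe set, only the groups compared, the sham samples of a time averaged, all uninjured arrays as 1 control, a replicate block, the title letter as a block, leaving out each array, and leaving out the 4 rat arrays that stand apart. The titles do not state whether the replicate numbers pair rat samples, and the main fit used no pairing. Of 15 same-numbered pairs of injured and sham arrays, 4 had deviations correlated above 0.1 (range -0.411 to 0.358). In groups this small, such values cannot show whether samples were handled as pairs. Mouse sham samples of 1 time share a number and differ by a letter, and were counted as 2 samples.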

Additional observations from a re-analysis of the deposited data

Results flagged for a closer look

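In mouse, the injury difference at 72 h was larger than at 4 h by 2.25 on the log2 scale for B2m, by 1.25 for Cd74 and by 0.86 for H2-D1, and by 3.37 for H2-Aa in the fit without the filter. In rat, the same contrast gave 2.24 for RT1-DMa and 2.73 for RT1-DMb. These stood out because the difference between times was itself tested (limma interaction contrast). The mouse 4 h sham samples held pituitary hormone transcripts, and 2 of the 4 rat sham arrays at 4 h stood apart from the rest.

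Of 51 sets of values examined (each of 17 rat members in each of the 3 groups of 4 or 5 arrays), 2 held an array far from the others, where chance gives about 1 in 20. Rat Cd74 read 77.7 in sham 4 h replicate 4, against 270.4 to 342.7 in the other 3 arrays of that group. RT1-CE16 read 3159.0 in sham 30 min replicate 2, against 3867 to 3991 in the others.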

How the results depend on the processing

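Of 31 called differences, refitted in 449 combinations with an alternative, 365 kept their call, 84 lost it and 0 changed sign. Mouse 72 h B2m (1.52 to 2.49), Cd74 (1.65 to 1.95), H2-K1 and H2-D1 kept theirs in 14 of 14, while H2-Ab1 lost its call in 9 of 14, Tap1 lost it with the mean of its probe sets (adjusted p = 0.0541, limma), rat 4 h RT1-DMa lost it in 10 of 15 and mouse H2-D1 in the 72 h against 4 h contrast in 10 of 17. Only the groups compared gave 0 members at mouse 24 h, 2 for mouse 72 h minus 24 h, 0 at rat 4 h, 1 at rat 72 h and 0 for rat 72 h against 4 h. Sham samples averaged gave 0 at mouse 24 h, 1 at 8 h and 1 for 72 h against 4 h. All uninjured arrays as 1 control gave 3 at mouse 4 h, 1 at rat 8 h, 7 at rat 24 h and 9 at rat 72 h, and turned RT1-Db1 at rat 24 h to 1.45 (-0.19 against its own sham). Quantile normalization gave 1 at rat 24 h and 3 at rat 72 h, and moved the all-gene median of rat 72 h against 4 h to -0.07 (0.23 as reported). Rat 4 h gave 0 with no filter, 0 with the mean of probe sets and 2 with every probe set, the mean of probe sets gave 1 at rat 8 h and 5 for 21 d minus 72 h. Without the 4 rat arrays the counts were 3 at 8 h, 1 at 24 h and 8 at 72 h. The replicate block gave 1 at mouse 24 h and moved no other count of members by over 1.5 times; the title letter could not be fitted as a block for mouse 4 h, 72 h against 4 h and sham against naive. Leaving out 1 array gave 1 to 2 members at mouse 8 h, 0 to 2 at 24 h, 5 to 5 at 72 h, 1 to 3 for 72 h against 4 h and 3 to 5 for 72 h minus 24 h, and in rat 0 to 7 at 4 h, 0 to 6 at 72 h, 0 to 3 for 72 h against 4 h and 1 to 3 for 21 d minus 72 h, and 0 elsewhere. Over all genes, calls with all uninjured arrays as 1 control numbered 443 at mouse 4 h (55 as reported), 79 at rat 8 h (29) and 462 at rat 24 h (11). Without the 4 rat arrays they numbered 44 at 4 h (204 as reported), 73 at 8 h, 34 at 24 h and 376 at 72 h. Only the groups compared gave 1 at rat 4 h. Calls also numbered 475 with only the groups compared and 469 with averaged shams at mouse 72 h (987 as reported), and 62, 19 and 239 with quantile normalization, only the groups compared and all uninjured arrays at rat 72 h (113). Fits with only the groups compared or with averaged shams hold fewer samples, yet only the groups compared gave more calls at mouse 4 h (73) and rat 8 h (48). The cause of the changes in these counts was not tested. Values near the floor, as in H2-Aa and H2-Ab1, carry little signal over background.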
